A study of Mus musculus with 8 samples.

Results

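The genes of the circadian clock were described across 4 mouse tissues. The 10 genes, Arntl, Clock, Per1, Per2, Per3, Cry1, Cry2, Nr1d1, Nr1d2 and Dbp, were taken by symbol, and all 10 were found among the 52195 genes of the deposited expression table. It was made from polyadenylated RNA of 4 tissues, the kidney, lung, liver and small intestine of male C57BL/6J mice (C57BL/6 in the labels) aged 6 to 10 weeks, and each tissue has 2 libraries, 8 in all. The mice were wild type as far as the labels say, since these name no treatment and no altered allele, and each tissue was ground whole. By the methods, all 4 tissues were excised from each mouse, and the authors state that the 2 samples of a tissue are from separate mice. No source used here says that the same replicate number in different tissues marks the same mouse. None gives the hour at which a tissue was taken. A low value for a gene in such whole-tissue RNA can mean fewer cells that express it or less RNA per cell, and these cannot be told apart.

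The clock is a feedback loop of transcription that runs in most cells of the body with a period of about a day. The proteins of Arntl (BMAL1) and Clock form a dimer that binds the E-box, a short DNA motif, and switches on the Per, Cry, Nr1d1, Nr1d2 and Dbp genes. The PER and CRY proteins then accumulate and block that dimer, while the nuclear receptors REV-ERBα (Nr1d1) and REV-ERBβ (Nr1d2) bind ROR elements and repress Arntl itself. In mouse liver, kidney, lung and gut, transcripts of Dbp and of Nr1d1 are therefore known to peak when those of Arntl are low, so that their relation within a sample depends on the time of day at which it was taken.

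The promoter sequences of the loop are shown first, as background on the motifs through which it is known to act. The part of these motifs in the levels and replicate differences described further on was not tested. RefSeq windows on GRCm38.p6, from 250 bases before a transcription start to 50 bases after it, were given for 9 of the 10 genes, in 13 windows. Per2 has no entry. The motifs searched on both strands were the E-box CACGTG, the E-prime box CACGTT, the D-box TTATGTAA or TTACGTAA (bound by DBP and its relatives), the ROR element TAGGTCA or TGGGTCA, and the cAMP response element TGACGTCA. Of all 32851 windows, 7.15% held the E-box, 4.68% the E-prime box, 1.06% the D-box, 6.45% the ROR element and 1.79% the cAMP response element. Of the 13 windows, 2 held the E-box, 3 the E-prime box, 1 the D-box and 1 the ROR element. In the windows of 6 of the 9 genes at least 1 motif was found, and no match overlapped another. The share of all windows with any of the motifs is not given, so that count cannot be read as an excess. The cAMP response element was in none of the 13 windows, and the windows of Clock, Nr1d2 and Dbp held none of these letters, which says nothing of sites elsewhere. The 250 bases before the start are given for 4 genes, 5′ to 3′ on the strand of the gene, with each motif in capitals. The base before the start is position -1.

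The Per1 sequence (chr11:69098699-69098948, plus strand) has an E-box at -166 to -161. It lies inside the span of Per1 in the GENCODE annotation, 1 base of it in an exon and the rest in an intron of longer transcripts.
Per1: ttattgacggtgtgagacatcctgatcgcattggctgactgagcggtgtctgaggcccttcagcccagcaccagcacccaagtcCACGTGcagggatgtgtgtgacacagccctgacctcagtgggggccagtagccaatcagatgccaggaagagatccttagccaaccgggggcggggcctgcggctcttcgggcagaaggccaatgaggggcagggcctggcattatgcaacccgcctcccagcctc

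For Cry1 (chr10:85185055-85185304, minus strand), an E-prime box at -79 to -74, read on this strand as AACGTG, stands before an E-box at -60 to -55. The last 10 bases are in the annotated first part of Cry1.
Cry1: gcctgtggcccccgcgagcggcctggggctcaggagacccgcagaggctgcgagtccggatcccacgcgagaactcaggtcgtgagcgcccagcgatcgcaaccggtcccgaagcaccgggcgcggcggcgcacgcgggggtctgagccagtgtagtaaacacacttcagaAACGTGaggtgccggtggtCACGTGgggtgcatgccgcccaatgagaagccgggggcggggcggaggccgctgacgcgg

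In Nr1d1 (chr11:98775378-98775627, minus strand, in no annotated gene) the match is an E-prime box at -28 to -23.
Nr1d1: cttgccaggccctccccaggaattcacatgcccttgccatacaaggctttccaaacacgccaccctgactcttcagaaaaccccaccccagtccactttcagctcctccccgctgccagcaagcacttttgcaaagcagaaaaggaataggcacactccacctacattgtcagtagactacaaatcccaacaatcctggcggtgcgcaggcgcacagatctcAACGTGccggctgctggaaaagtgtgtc

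In Per3 (chr4:151044666-151044915, minus strand, inside the span of Camta1 but in none of its exons) there are 2 D-boxes, at -205 to -198 and at -158 to -151.
Per3: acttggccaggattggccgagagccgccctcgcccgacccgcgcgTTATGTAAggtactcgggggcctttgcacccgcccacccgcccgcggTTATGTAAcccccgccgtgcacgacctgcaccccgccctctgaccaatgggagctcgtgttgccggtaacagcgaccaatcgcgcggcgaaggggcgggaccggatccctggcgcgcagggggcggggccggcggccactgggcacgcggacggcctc

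The ROR element was found in Arntl, at 31 to 37 after the second of its starts, and in Nfil3, whose product represses through the same D-box that DBP activates. In Nfil3 it reads TGACCTA on the strand of the gene, at -12 to -6. Both sites are in annotated exons, outside the coding part, and 30 bases around each are given (chr7:113207529-113207558, plus strand, and chr13:52981034-52981063, minus strand).
Arntl: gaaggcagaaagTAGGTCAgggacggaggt
Nfil3: ggcgctcggaacTGACCTActaacacacat

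Levels were given by the authors as FPKM, a read count divided by gene length and library size. All 10 genes were above 0 in all 8 libraries and passed the filter used for testing, at least 2 libraries with an FPKM not under 1, which 16328 genes passed. The reads behind the values were recovered from the steps of the table. They ranged from 27 for Per3 at its lowest to 1871 for Nr1d2 at its highest, in libraries with 9399956 to 22133910 recovered reads on genes. All 16 listed marker genes of hepatocytes, enterocytes, lung epithelium and kidney tubule were higher in both libraries of their own tissue than in the other 6. Beside these, cardiac muscle genes summed to an FPKM of 136 and 134 in the lung libraries, and pancreatic acinar genes to 1798 and 811 in the small intestine libraries. Adipocyte genes summed to 23.9 and 15.9 in lung and 36.7 and 52.6 in small intestine, against at most 1.49 in kidney and liver. The summed adrenal cortex genes were at most 0.151 in any library.

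Arntl and Clock, the activators, were lowest in kidney. Arntl, on chromosome 7 from 113207465 to 113314126, had an FPKM of 1.004 and 2.60 in replicates 1 and 2 of kidney, 4.94 and 4.95 for lung, 2.36 and 4.93 for liver and 5.03 and 3.87 for small intestine. The replicates are given in this order throughout. The low values were those of kidney and of liver replicate 1, and every neighbouring pair of tissues in the order of means overlapped. Clock, on chromosome 5 from 76209868 to 76304792, was at 2.34 and 1.12 for kidney, 3.78 and 4.81 for lung, 2.17 and 2.63 for liver and 3.74 and 4.36 for small intestine. On this scale its lung and small intestine libraries were all above those of kidney and liver. Scaled by the median of ratios, described further on, liver was highest, at 3.93 and 4.19, and lung was at 2.08 and 2.53.

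The period genes, the inducible repressors of the loop, were highest in lung by the mean, and in kidney they differed most between the replicates. Per1, on chromosome 11 from 69095217 to 69109960, had an FPKM of 18.8 and 22.5 for lung, 5.25 and 1.47 for kidney, 2.75 and 2.77 for liver and 3.43 and 4.36 for small intestine. The lung libraries stood alone, and the kidney libraries spanned those of liver and small intestine. Per2, on chromosome 1 from 91415982 to 91459324, was at 7.38 and 4.91 for lung, 5.25 and 0.878 for kidney, 1.68 and 1.21 for liver and 1.35 and 2.97 for small intestine. Per3, on chromosome 4 from 151003652 to 151044665, was at 3.73 and 2.30 for lung, 2.34 and 0.337 for kidney, 0.579 and 0.272 for liver and 0.511 and 0.708 for small intestine. For both genes kidney replicate 1 was above lung replicate 2, so that lung and kidney overlapped. After median-of-ratios scaling kidney replicate 1 was the highest library for Per2 (5.09, beside 4.06 and 2.58 for lung). The same held for Per3 (2.28, beside 2.05 and 1.21 for lung).

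The cryptochromes, which hold the repressor complex together, followed different orders. Cry1, on chromosome 10 from 85131700 to 85185064, had an FPKM of 0.768 and 0.640 for kidney, 3.46 and 5.78 for lung, 1.89 and 3.04 for liver and 3.10 and 3.15 for small intestine. None of the 4 tissues overlapped its neighbour for Cry1 as deposited, with kidney at the bottom. After median-of-ratios scaling kidney was still at the bottom, at 0.745 and 0.890, but liver was highest, at 3.43 and 4.85, and lung overlapped small intestine. Cry2, on chromosome 2 from 92403646 to 92434043, was at 1.90 and 0.978 for kidney, 10.4 and 9.15 for lung, 3.68 and 3.03 for liver and 1.23 and 1.79 for small intestine. As deposited, lung stood above liver and liver above the overlapping kidney and small intestine, while after the scaling lung (5.74 and 4.82) and liver (6.66 and 4.84) overlapped. For Cry2, 4.67% of the exon length is shared with a gene on the other strand, D930015M05Rik, and the use of strand in the counting is not given in the sources used here.

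Nr1d1 and Nr1d2, the REV-ERB repressors, had the 2 highest levels of the 10 per length in 6 of the 8 libraries, Per1 being between or above them in lung. Nr1d1, on chromosome 11 from 98767932 to 98775333, had an FPKM of 11.5 and 7.25 for kidney, 25.9 and 10.8 for lung, 23.8 and 13.1 for liver and 13.4 and 22.4 for small intestine. Nr1d2, on chromosome 14 from 18204054 to 18239127, was at 16.1 and 4.98 for kidney, 12.6 and 8.39 for lung, 11.04 and 6.52 for liver and 5.29 and 9.36 for small intestine. All tissues overlapped for Nr1d2, while for Nr1d1 kidney overlapped lung (replicate 2) but not its neighbour in the order of means, small intestine. Nr1d1 shares 8.55% of its exon length with Thra on the other strand.

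Dbp, an output gene of the loop that in turn activates D-box genes, was highest in kidney replicate 1. On chromosome 7 from 45705088 to 45710203, its FPKM was 7.34 and 2.05 for kidney, 3.39 and 1.75 for lung, 3.17 and 0.971 for liver and 0.999 and 1.53 for small intestine. All neighbouring tissues overlapped. For Dbp, 18.01% of its exon length is shared with Sphk2 on the other strand. Over the 10 genes, 8 of the 30 pairs of tissues that were neighbours in the order of means did not overlap and 22 did, whereas 66.5% of such pairs did not overlap over all genes tested. After median-of-ratios scaling the counts were again 8 and 22, beside 60.3% of all such pairs, but the order of tissues differed.

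**Figure D1:**
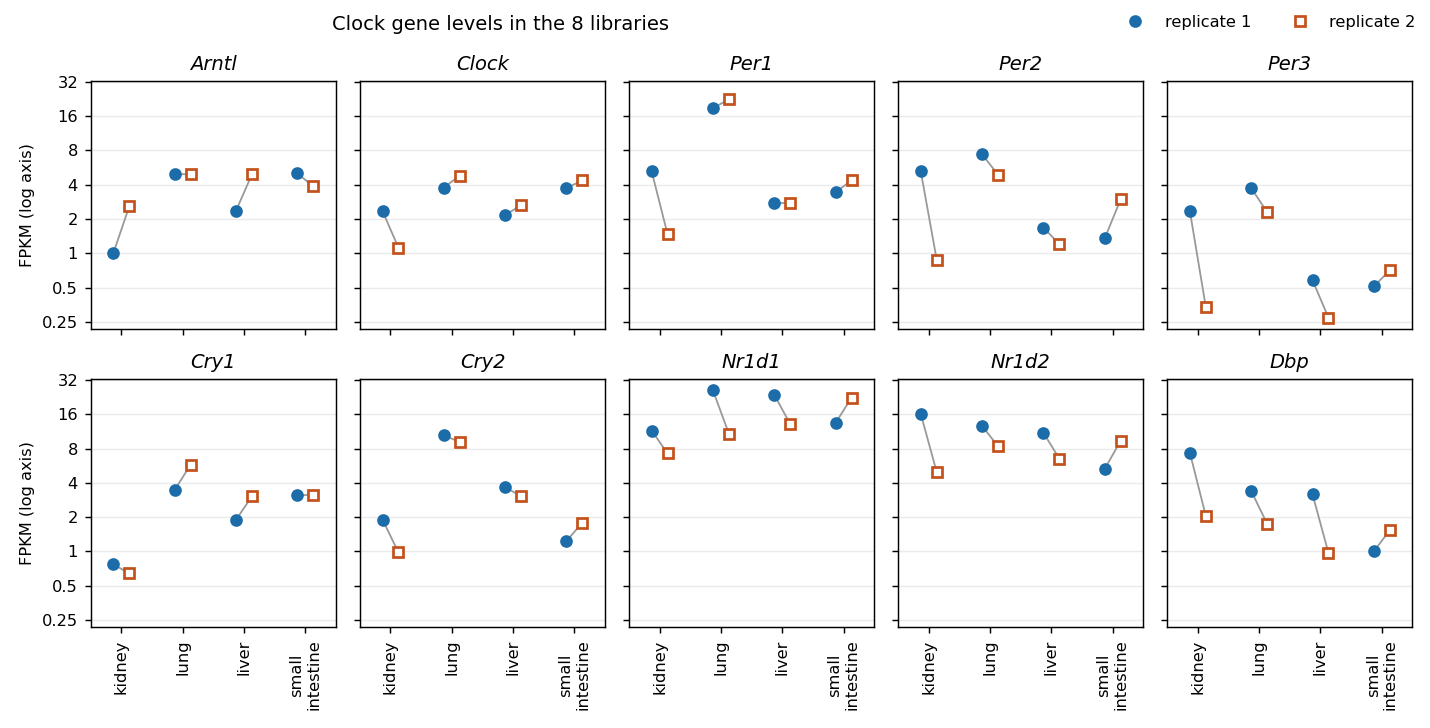
FPKM (log axis) of each of the 10 genes in kidney, lung, liver and small intestine, with replicate 1 as a filled circle and replicate 2 as an open square, joined by a line within a tissue. Per1 in lung (18.8 and 22.5) and Cry1 in kidney (0.768 and 0.640) stand apart from the other libraries, while for Dbp, Nr1d1, Nr1d2, Per2, Per3 and Cry2 the circle is above the square in kidney, lung and liver and below it in small intestine.

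Each tissue was then compared with the mean of the other 3 on the scale of log2(FPKM + 1), by limma over all 16328 genes with Benjamini-Hochberg adjustment, and a gene was called where the adjusted p was under 0.05 and the log2 difference over 1 in size. In lung 4 of the 10 genes were called, each of them higher, where 40.7% of all genes were called higher and 8.26% lower. The 4 were Per1, with a log2 difference of 2.38 (standard error 0.32, limma adjusted p = 0.000282), Cry2 with 1.86 (standard error 0.19, limma adjusted p = 7.40e-05), Per2 with 1.26 (limma adjusted p = 0.0288) and Per3 with 1.23 (limma adjusted p = 0.00927). The median over the 10 genes was 0.75, beside 0.82 over all genes, lung values being higher for most genes on the deposited scale. Relative to that median, Per1 was at 1.56, Cry2 at 1.04, Per2 at 0.44 and Per3 at 0.41. Both lung libraries were above the other 6 for Per1, Cry1 and Cry2, as they were for 51.4% of all genes. For Per1 and Cry2 an exact permutation test over the ways to choose 2 of 8 libraries gave p = 0.0357 (two-sided), the smallest it can give, and for Per2 and Per3 it gave p = 0.0714.

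Scaling the libraries by the median of ratios over genes, a usual way to remove such a shift, left Per1 as the 1 gene of the 10 called in lung, beside 30.6% of all genes in either direction. Its log2 difference was then 1.32 (standard error 0.26, limma adjusted p = 0.00291). Cry2 was at 0.85, Per3 at 0.53 and Per2 at 0.36. Arntl, Clock, Nr1d1, Nr1d2 and Dbp, at 0.12 to 0.56 with the values as deposited, turned to between -0.86 and -0.32, uncalled in either case. The calls of Per3 and Per2 in lung also rested on single libraries. Without lung replicate 1 the log2 difference of Per3 was 0.97 and it was not called, while Cry1 was called at 1.23 (and at 1.01 without liver replicate 2). Per3 was at 2.09 with a pseudocount of 0.1 and at 2.25 with limma-voom on the recovered reads, called in both. That test called 5 of the 10 genes in lung, beside 64.8% of all genes. That of Per2 was 0.97 without kidney replicate 2 and 1.01 without lung replicate 1, and it was no longer called in those fits, in those without lung replicate 2, liver replicate 1, liver replicate 2 or small intestine replicate 1 (between 1.13 and 1.51), or when no filter on low values was used (1.26). Immediate early genes, which respond to signals within minutes and with which Per1 is induced in many cells, were high in the same libraries, though also in small intestine, where Per1 was not. Of 9 listed, 8 were tested and 7 called higher in lung (beside the 40.7% of all genes), among them Dusp1 at a log2 difference of 3.25 and Jun at 2.83, and their summed FPKM was 235 and 330 in lung, 149 and 177 in small intestine and 31.6 to 52.9 in kidney and liver. After median-of-ratios scaling 2 of the 8 were called higher in lung, beside 14.6% of all genes. In small intestine 5 of the 8 were called higher and 1, Dusp1, lower under both scalings, where 13.7% of all genes were called higher as deposited and 13% after the scaling. Fos was higher in small intestine (37.2 and 66.4) than in lung (18.6 and 25.04). The part of these genes, and of the cardiac muscle and adipocyte RNA in both lung libraries, in the lung level of Per1 was not tested.

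In kidney 2 of the 10 genes were called, both lower, where 8.65% of all genes were called higher and 16.1% lower. The 2 were Cry1, with a log2 difference of -1.33 (standard error 0.21, limma adjusted p = 0.00117), and Cry2, with -1.03 (standard error 0.19, limma adjusted p = 0.00298). Relative to the median of all genes, -0.34, they were at -0.99 and -0.69. Both kidney libraries were below the other 6 for Cry1, as for 8.05% of all genes, with an exact permutation p of 0.0357, and Cry1 stayed called after median-of-ratios scaling, at -1.17, where 23.6% of all genes were called. With a pseudocount of 0.1 Cry1 was at -2.06, and with limma-voom, which called 4 of the 10 genes beside 38.1% of all genes, at -2.20. The call of Cry2 was lost after the scaling, at -0.84, and also without kidney replicate 2 (-0.75), lung replicate 1 (-0.9999), liver replicate 1 (-0.99) or small intestine replicate 2 (-0.97). Other genes gained a call without 1 library. These were Dbp (1.56) and Arntl (-1.39) without kidney replicate 2, Per1 (-1.57) and Clock (-1.08) without kidney replicate 1, Nr1d1 (-1.05) without lung replicate 2, and Arntl without liver replicate 1 (-1.10) or small intestine replicate 2 (-1.02).

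In liver and in small intestine 0 of the 10 genes were called by limma, where 6.56% of all genes were called higher and 32.7% lower in liver, and 13.7% higher and 11.3% lower in small intestine. At an unadjusted p under 0.05 there was 1 gene in each, where 80% of all genes were in liver and 58.9% in small intestine. They were Per1 in liver at -0.99 (limma adjusted p = 0.0223) and Cry2 in small intestine at -0.95 (limma adjusted p = 0.00458), neither of them over 1 in size. The limma-voom test on the recovered reads called 0 in liver, beside 57.1% of all genes, and 1 in small intestine, Cry2 at -1.24, beside 35.1%. After median-of-ratios scaling Nr1d1 was called higher in liver, at 1.30 (standard error 0.39, limma adjusted p = 0.0230), with 26.2% of all genes called, and none of the 10 in small intestine, with 24.6% (2 of the 10 at an unadjusted p under 0.05, beside 58.6% of all genes). Nr1d1 was at 0.33 in liver with the values as deposited, 1.05 above the median of all genes there, -0.72. After the scaling 6 of the 10 genes in liver were at an unadjusted p under 0.05, beside 10248 of 16328 genes. The median over the 10 genes in liver was -0.14 as deposited and 0.66 after the scaling, beside -0.72 and -0.14 over all genes. Without kidney replicate 2, Per1 (-1.21) and Per2 (-1.07) were called in liver and Cry2 (-1.04) in small intestine. Per1 was also called in liver without small intestine replicate 1 (-1.03), and Cry2 in small intestine without small intestine replicate 2 (-1.11).

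**Figure D2:**
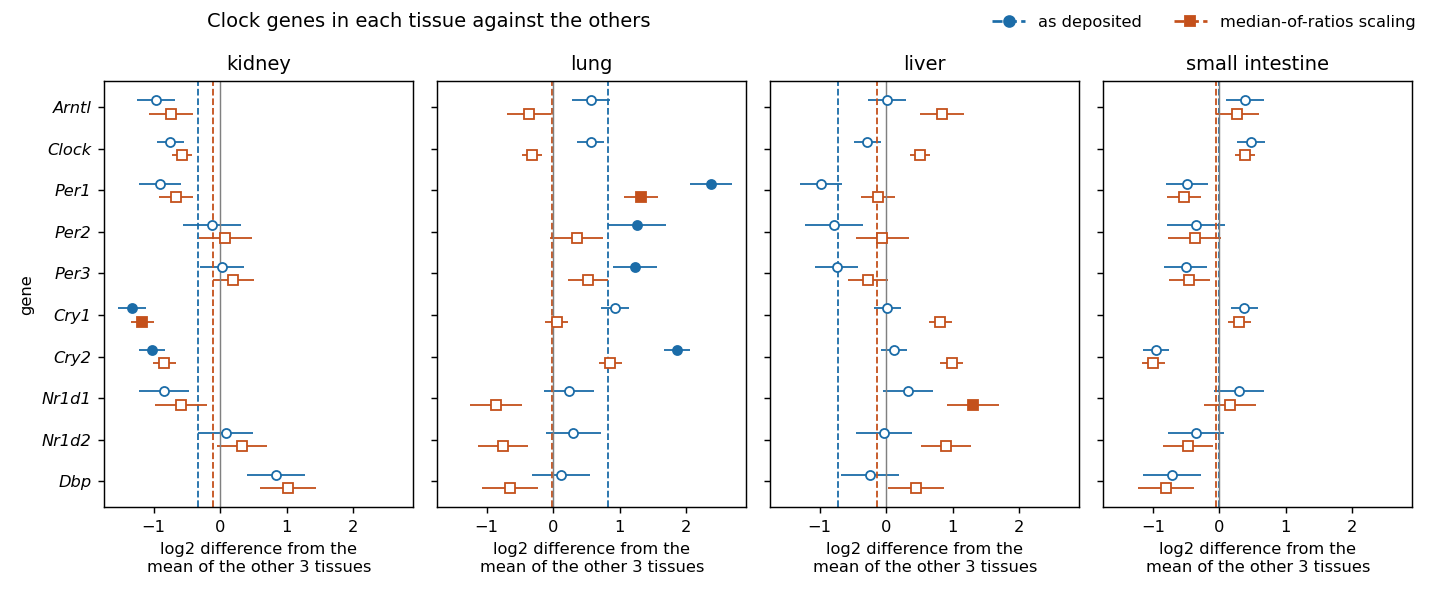
Log2 difference of each gene in a tissue from the mean of the other 3 tissues (points, with the limma standard error as bars), for values as deposited (circles) and after median-of-ratios scaling (squares), filled where called. Dashed lines mark the median of all 16328 genes in the same fit, which in lung moves from 0.82 to -0.02. Per1 in lung and Cry1 in kidney are filled under both scalings.

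The 2 libraries of a tissue differed in several clock genes, with the same set of signs in most of these genes. Dbp was higher in replicate 1 than in replicate 2 of kidney (3.59-fold), lung (1.94-fold) and liver (3.27-fold), and in small intestine it was 1.54-fold higher in replicate 2, on 28 and 52 reads. Nr1d1, Nr1d2, Per2, Per3 and Cry2 had the same signs in all 4 tissues. Nr1d2 was 3.24-fold, 1.51-fold and 1.69-fold higher in replicate 1 of kidney, lung and liver and 1.77-fold higher in replicate 2 of small intestine, and for Per2 the folds were 5.98, 1.504 and 1.39, and 2.20 in replicate 2 of small intestine. Arntl ran the other way. It was 2.58-fold higher in replicate 2 of kidney, 2.09-fold higher in replicate 2 of liver, 1.30-fold higher in replicate 1 of small intestine, and at nearly the same level in both lung libraries.

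Of the 9 genes beside Dbp, 5 had the sign of Dbp in 4 of 4 tissues and 1, Arntl, the opposite sign in 4 of 4, while 5.56% of all genes tested had the same signs and 6.6% the opposite ones. After median-of-ratios scaling these were 5 and 0 of 9, with 6.69% and 6.95% of all genes, because the lung difference of Arntl, 4.94 against 4.95, changed sign. Counted by tissue, 9 of the 10 genes were higher in replicate 1 of kidney, 6 in that of lung, 6 in that of liver and 1 in that of small intestine, where 72.9%, 39.0%, 36.5% and 54.9% of all genes were. After the scaling the counts were 8, 7, 7 and 1, with 45.1%, 48.4%, 52.6% and 48.3% of all genes. The median size of the replicate difference (log2) over the 10 genes was 1.08 in kidney and between 0.31 and 0.51 in the other 3 tissues, beside 0.30 in kidney and 0.14 to 0.18 elsewhere over all genes, so that the kidney libraries also stood farthest apart in other genes. The kidney tubule genes summed to an FPKM of 16978 and 32994 there, mostly Kap (15159 and 31665.5). Umod (753 and 554) and Slc34a1 (987 and 655) went the other way. The part of such differences in those of the clock genes was not tested. The remaining 3 genes, Per1, Cry1 and Clock, did not follow Dbp. Per1 was 3.58-fold higher in kidney replicate 1 but at 2.75 and 2.77 in liver, and Cry1 was 1.67-fold and 1.61-fold higher in replicate 2 of lung and liver.

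**Figure D3:**
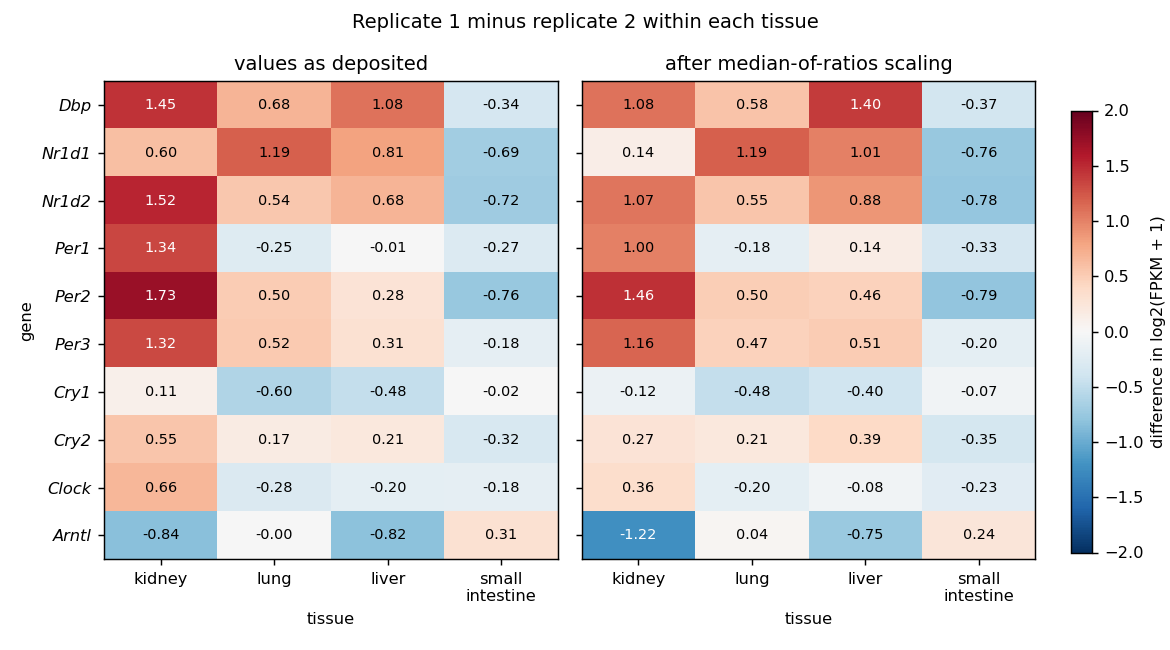
Difference in log2(FPKM + 1) between replicate 1 and replicate 2 for each gene (rows) and tissue (columns), red where replicate 1 was higher and blue where it was lower, for values as deposited (left) and after median-of-ratios scaling (right). Dbp runs from 1.45 in kidney to -0.34 in small intestine as deposited, and Arntl from -0.84 to 0.31.

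A test across the tissues can only average over libraries that share a replicate number, so its result says nothing about the difference within a tissue. In a limma fit with a term for the tissue and one for that number, 0 of the 10 genes and 0 of 16328 were called at an adjusted p under 0.05, 0% of all genes, and 1 of the 10 and 274 of all genes had an unadjusted p under 0.05. The limma-voom test on the recovered reads also called 0 of the 10. For Dbp the mean difference was 0.72 (standard error 0.29, limma adjusted p = 0.9998), with replicate 1 higher in 3 of 4 tissues, and for Arntl it was -0.34 (standard error 0.23). Both moved with the tissues taken, Dbp to 0.47 without kidney (and to 1.18 with limma-voom), and Arntl to -0.17 without kidney, -0.18 without liver and -0.55 without small intestine. The exact sign-flip permutation test gave p = 0.25 for Dbp (two-sided) and cannot go below 0.125 with 4 tissues. Whether the difference in kidney, lung and liver differed from that in small intestine was tested by an interaction term, chosen after the values were seen. It called 0 of 10 and 0 of 16328 genes, again 0%, with 3 of 10 and 1026 of all genes at an unadjusted p under 0.05. After median-of-ratios scaling it called 0 of 10 and 0 of 16328, with 5 of 10 and 890 of all genes at an unadjusted p under 0.05. The 3 with the values as deposited were Nr1d1, with a difference of 1.56 (standard error 0.31, limma adjusted p = 0.639), Nr1d2 with 1.63 and Dbp with 1.41.

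Within a library the ratio of a gene to Arntl does not depend on how libraries are scaled to each other. The ratio of Dbp to Arntl in FPKM was 7.31 and 0.788 in kidney replicates 1 and 2, 0.686 and 0.353 for lung, 1.34 and 0.197 for liver and 0.199 and 0.396 for small intestine. It was thus higher in replicate 1 by 9.27-fold in kidney, 1.94-fold in lung and 6.81-fold in liver, and higher in replicate 2 of small intestine by 1.99-fold. The ratio of Nr1d1 to Arntl was 11.5 and 2.79 for kidney, 5.25 and 2.18 for lung, 10.05 and 2.66 for liver and 2.67 and 5.77 for small intestine. For Nr1d1 the libraries labelled replicate 1 of kidney, lung and liver and replicate 2 of small intestine held the 4 highest ratios, between 5.25 and 11.5, and the other 4 were between 2.18 and 2.79. The ratio of Cry1 to Arntl was between 0.247 and 1.17, lowest in kidney replicate 2 and highest in lung replicate 2. Across the 8 libraries log2(FPKM + 1) of Dbp and of Arntl had a Pearson r of -0.81, that of Per2 and Per3 0.97 and that of Arntl and Cry1 0.83, as a description in which the points share tissues and libraries. The r of Arntl was -0.50 with Nr1d2, but 0.21 with Nr1d1, -0.06 with Per2, -0.07 with Per3, 0.35 with Per1 and 0.40 with Cry2, so that over all libraries Dbp and Nr1d2 alone had an r under -0.1 with it.

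**Figure D4:**
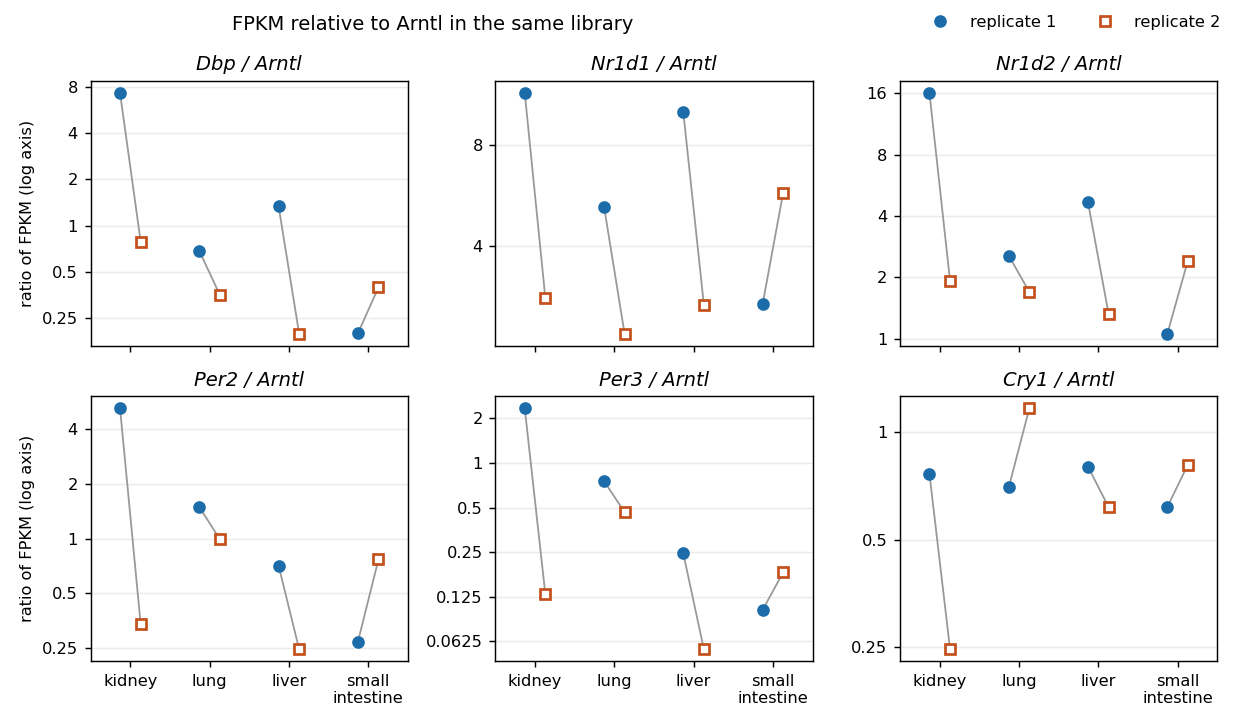
Ratio of the FPKM of 6 genes to that of Arntl in the same library (log axis, each panel with its own range), with replicate 1 as a filled circle and replicate 2 as an open square. For Dbp the circle is above the square in kidney (7.31 and 0.788), lung and liver and below it in small intestine (0.199 and 0.396), as it is in the panels of Nr1d1, Nr1d2, Per2 and Per3.

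The D-box factors that share or oppose the role of Dbp had the same pattern of signs. Tef and Hlf, which activate D-box genes as DBP does, followed Dbp in 4 of 4 tissues, and Nfil3, their antagonist, had the opposite sign in 4 of 4, under both scalings. Tef had an FPKM of 28.2 and 10.3 for kidney, 19.3 and 16.2 for lung, 10.4 and 4.90 for liver and 2.76 and 4.73 for small intestine. Nfil3 was at 1.01 and 2.34 for kidney, 4.95 and 5.56 for lung, 8.56 and 13.2 for liver and 5.48 and 3.31 for small intestine. The ratio of Nfil3 to Dbp ranged from 0.138 in kidney replicate 1 to 13.6 in liver replicate 2. None of the 3 was called between replicates by limma, with 0 at an unadjusted p under 0.05. Between tissues, Hlf was called higher in kidney (1.99) and lower in small intestine (-2.01, standard error 0.22, limma adjusted p = 0.000180), Tef higher in lung (1.08) and lower in small intestine (-1.60), and Nfil3 lower in kidney (-1.49) and higher in liver (1.40). After median-of-ratios scaling Tef was at -0.02 in lung, the other calls of the 3 genes held, and Tef was also called higher in kidney (1.30) and Hlf lower in lung (-1.29) and higher in liver (1.24).

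Of 10 further activators and repressors of the loop, 7 passed the filter, and 2 of these, Ciart and Bhlhe40, followed the signs of Dbp in 4 of 4 tissues (3 of 7 after median-of-ratios scaling). Ciart, a repressor of the CLOCK and BMAL1 dimer, had an FPKM of 3.34 and 0.332 for kidney, 11.3 and 10.5 for lung, 1.54 and 0.0857 for liver and 0.236 and 0.430 for small intestine, and it was called higher in lung (2.77) and lower in small intestine (-1.45). Its lowest values rest on 2 reads in liver replicate 2 and on 5 and 11 in small intestine. Bhlhe40, which competes for E-boxes, was at 11.3 and 6.75 for kidney, 9.23 and 6.65 for lung, 13.5 and 6.05 for liver and 7.56 and 11.9 for small intestine. Npas2, a partner of BMAL1 in place of CLOCK, was lower in replicate 1 in all 4 tissues and was called higher in small intestine (1.49) and lower in liver (-1.01). Rora, an activator at ROR elements, was at 0.311 and 0.263 in small intestine against 2.22 to 5.29 elsewhere and was called lower there (-1.99, standard error 0.19, limma adjusted p = 7.88e-05) and higher in liver (1.05). The scaling by median of ratios kept the calls of Ciart in lung, Npas2 in small intestine and Rora, and ended those of Ciart in small intestine (-1.33) and Npas2 in liver (-0.64). No gene of this list was called between replicates, with 1 at an unadjusted p under 0.05.

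Of 8 listed kinases and ubiquitin ligases that act on the PER and CRY proteins, 7 were tested and 0 had the signs of Dbp in 4 of 4 tissues, or 1 after median-of-ratios scaling. Csnk1e, a kinase that marks PER for degradation, was called higher in lung (2.44) and lower in small intestine (-1.44) and in kidney (-1.001, or -0.74 and not called after that scaling). Of 8 listed output genes of the clock, 7 were tested, and Usp2 and Wee1 followed Dbp in 4 of 4 tissues (4 of 7 genes did so after the scaling). Usp2, a deubiquitinase, was called higher in kidney (2.60), at 39.3 and 18.2, and lower in lung and liver. Cdkn1a, a cell cycle inhibitor that Nr1d1 is known to repress, was called higher in lung (2.96) and in small intestine (2.58). It was called lower in kidney (-2.64), and its FPKM in liver was 4.91 and 4.92. No gene of either list was called between replicates by limma, with 0 at an unadjusted p under 0.05 in each.

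Genes induced by glucocorticoids, hormones that rise daily and can set the clock of peripheral tissues, were listed as another input to Per1. Of 7 listed, 6 were tested and 4, Fkbp5, Tsc22d3, Zbtb16 and Klf9, had the signs of Dbp in 4 of 4 tissues under both scalings. Of all genes tested, 5.56% had these signs as deposited and 6.69% after median-of-ratios scaling. Sgk1 and Mt1 did not have them. Sgk1 was higher in replicate 2 of liver (4.45 and 5.39), and Mt1 was higher in replicate 1 of small intestine (29.3 and 26.2). Fkbp5, a chaperone of the receptor, had an FPKM of 19.6 and 5.97 for kidney, 13.5 and 3.84 for lung, 6.93 and 2.62 for liver and 1.49 and 8.69 for small intestine. Zbtb16 was at 3.97 and 0.0875 for kidney, 15.8 and 2.01 for lung, 5.37 and 1.34 for liver and 0.0404 and 0.869 for small intestine, and Klf9 at 60.1 and 28.2, 54.6 and 35.7, 29.96 and 25.4, and 3.73 and 8.93, in the same order. The small intestine value of Zbtb16 in replicate 1 rests on 2 reads. The replicate with the higher Dbp was in each tissue also the one with the higher Fkbp5, Zbtb16 and Klf9. None was called between replicates by limma, with 1 at an unadjusted p under 0.05, and their part in the differences of the clock genes was not tested. Of the immediate early genes, 0 of 8 tested followed Dbp in 4 of 4 tissues under either scaling.

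**Figure D5:**
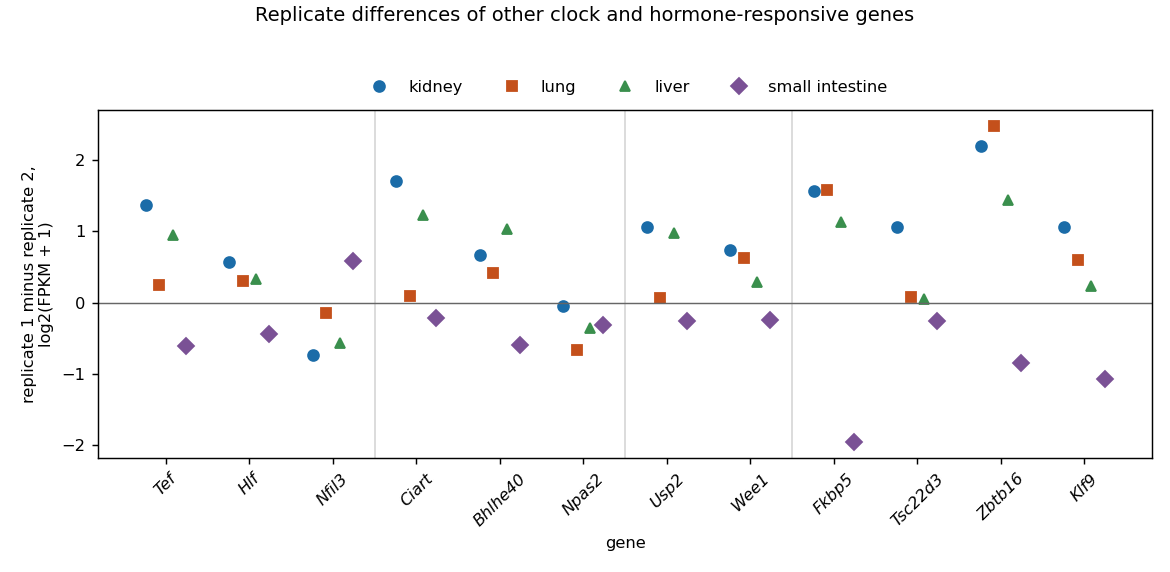
Difference in log2(FPKM + 1) between replicate 1 and replicate 2 in kidney (circles), lung (squares), liver (triangles) and small intestine (diamonds) for D-box factors, other loop genes, outputs and glucocorticoid-induced genes, separated by lines. The diamonds of Tef, Hlf, Ciart, Bhlhe40, Usp2, Wee1, Fkbp5, Tsc22d3, Zbtb16 and Klf9 lie below 0 and their other points above it, and those of Nfil3 the other way.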

How the data were processed

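Polyadenylated RNA of 4 tissues was measured in 8 libraries, grouped by the tissue and replicate number in the labels. The authors selected reads by sample index with bbduk, mapped them with STAR 2.5.3a under default parameters to an Ensembl mouse genome, and deposited FPKM values computed by DESeq2. The counting program, its use of strand and its handling of reads that map to several places are not given in the sources used here. Gene positions and exon lengths came from GENCODE M21 (GRCm38), which held 99.3% of the symbols as a single gene. With these lengths, 94.6% to 96.1% of the low values per library (0 to 50 reads) were whole reads within 0.02, which gave the reads behind each value. For 1 kb of exons, 3 reads correspond to an FPKM of 0.140 to 0.327, a floor for counting error only.

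Tests used limma 3.58.1 (lmFit and eBayes with a trend) in R 4.3.3 on log2(FPKM + 1), a scale that understates differences of low values, over the 16328 genes whose FPKM reached 1 in 2 or more libraries, with Benjamini-Hochberg adjustment over all of them. The fit was tested on simulated data. A count model was not the main test because FPKM values are not counts, and limma-voom on the recovered reads was chosen as an alternative after seeing the data. With 2 libraries per tissue, p-values measure the spread between these libraries. Tables and figures used Python 3.11.15, numpy 2.4.6, pandas 2.3.3 and matplotlib 3.10.9. The 10 genes and the lists were chosen with earlier results of these data known. Named from each list were the 3 genes with the largest replicate difference and the 3 with the largest tissue difference. Alternatives changed the pseudocount, the filter, the scaling, the trend, the block, the call and the libraries. The result of 1 listed gene is not reported here.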

Additional observations from a re-analysis of the deposited data

Results flagged for a closer look

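For 7 of the 10 clock genes, as deposited, the difference between replicates had one sign in kidney, lung and liver and the other in small intestine. Of all other genes tested, 12.2% had such signs in either direction as deposited, and 13.6% after median-of-ratios scaling. In small intestine, log2(FPKM + 1) of replicate 1 minus replicate 2 was -0.34 for Dbp, -0.69 for Nr1d1, -0.72 for Nr1d2, -0.76 for Per2, -0.18 for Per3 and -0.32 for Cry2, each positive in the other 3 tissues. For Arntl it was 0.31, with negative values elsewhere, the lung value near 0 and of the other sign after median-of-ratios scaling. The interaction term for this difference, added after the values were seen, called 0 of the 10 genes, with limma adjusted p between 0.639 and 0.99996 as deposited and between 0.524 and 0.980 after median-of-ratios scaling. The small intestine libraries also differed in pancreatic acinar genes, with a summed FPKM of 1798 in replicate 1 and 811 in replicate 2. In the same interaction 0 of the 5 acinar and 0 of the 6 glucocorticoid-induced genes tested were called by limma. At an unadjusted p under 0.05 there were 2 and 4, with medians of -0.97 and 1.69. Of the 10 clock genes there were 3, with a median of 0.76. Of all 16328 genes there were 1026, with a median of 0.018. The part of the acinar and glucocorticoid-induced genes in the clock gene differences was not tested. The 2 libraries of a tissue are from separate mice, but which mouse was numbered 1 in each tissue is not given. A change of sign between tissues can therefore also be a change of which library was numbered 1.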

How the results depend on the processing

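Genes called in kidney (2 as reported) numbered 4 with a pseudocount of 0.1, 1 with median-of-ratios scaling, 5 with the same sum in each library, 4 with limma-voom on recovered reads, 5 on the adjusted p alone and between 1 and 4 with 1 library left out. In lung (4) the number was 1 with median-of-ratios scaling, with or without the block, and 3 without the filter on low values. It was 5 with a pseudocount of 0.1, the same sum or limma-voom, and 6 on the adjusted p alone. In liver (0) it was 1 with a pseudocount of 0.1, with median-of-ratios scaling (also with the block), with the same sum or on the adjusted p alone, and between 0 and 2 with 1 library left out. In small intestine (0) it was 1 with a pseudocount of 0.1, the same sum, limma-voom or the adjusted p alone, and between 0 and 1 with 1 library left out. The mean replicate difference of Clock, 0.00 as deposited, turned to -0.038 with median-of-ratios scaling, -0.22 without kidney, and -0.17 and -0.025 with the scaling and without kidney or liver. That of Per1, 0.20, turned to -0.18 without kidney and -0.12 with the scaling too. The cause was not tested. Per1 in lung and Cry1 in kidney stayed called under all alternatives run, and no alternative called a replicate difference.

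The replicate number as a block left 4 genes called in lung, 2 in kidney and 0 in liver and small intestine. The numbers were not taken as a pairing across tissues, because no source says that the same number in different tissues is the same mouse. The replicate differences of all genes also correlated between tissues by only -0.22 to 0.05, with 0 of 6 pairs over 0.1. The 10 genes rest on 27 reads or more, but Ciart and Zbtb16 on as few as 2. The limits are 2 libraries per tissue, the scaling between tissues and the missing time of collection.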

Other observations

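The genes with the profile most like that of Dbp over the 8 libraries, among 10849 genes with a highest FPKM of 5 or more, were Gm23458 (Pearson r of 0.91), Fkbp5 (0.88) and Gm15889 (0.87), and those most like Arntl were Mydgf (0.94), Rpsa-ps9 (0.92) and Sec61g (0.92). These are descriptions over libraries that share tissues. Gm23458 was at an FPKM of 8.002 and 1.71 for kidney, 3.64 and 2.38 for lung, 1.94 and 1.15 for liver and 0.632 and 0.523 for small intestine, which for this short gene are 1 read each, and its liver values are 3 and 2 reads, at or under the floor of 3 reads. Mydgf was at 20.2 and 23.7 for kidney, 35.1 and 34.0 for lung, 25.4 and 36.0 for liver and 40.2 and 37.2 for small intestine.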
